A study of Mus musculus with 2 samples.

Results

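Dividing tumour cells were the carcinoma cells of 4T1 mammary tumours whose RNA held genes of the cell cycle above a set level. They were picked cell by cell from the deposited matrix of UMI counts, where a UMI (unique molecular identifier) stands for 1 captured RNA molecule. A member had at least 5000 UMIs, at most 20% of them mitochondrial, and no UMI of Ptprc, the pan-leukocyte gene CD45. It had at least 5 CP10K (UMIs per 10000 UMIs of the cell) summed over the epithelial genes Epcam, Krt8 and Krt18, and less than 20 CP10K of Wfdc18. It also had at least 5 CP10K summed over Top2a, Mki67 and Cenpf. Of 15288 barcodes, 1020 met all of these conditions, 499 in the knockout library and 521 in the control library. They were set beside the 4877 tumour cells that met every condition but the last, 1757 in the knockout library and 3120 in the control library, called other tumour cells here.

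The series concerns Kindlin-2, an adaptor protein encoded by Fermt2 that binds integrin tails and helps to activate integrins. The 2 libraries, 1 per group, came from tumours of 4T1 cells, an established BALB/c breast carcinoma line labelled as triple-negative. The knockout library is labelled with the genotype K2-KO and the treatment K2 sgRNA, and the control library with the genotype WT and the treatment Ctrl sgRNA. Both kinds of cell formed tumours after injection into the mammary fat pad of female BALB/c hosts. Tumours were taken at 150 mm3, digested with collagenase for 45 min and sorted for live cells with respect to mCherry. Whether a line was 1 clone, how many tumours entered a library and which sorted fraction was loaded are not given in the labels.

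Barcodes were assigned to libraries by their suffix, 2 for the knockout and 1 for the control, a match that rests on the number in the library name alone. The knockout library held 180774106 UMIs over 7250 barcodes and the control library 214163620 over 8038. The libraries shared 13 barcode sequences, 2 of them with a member in either library and 0 with a member in both. With 1 library per group there are no replicates, so no difference below could be tested against the spread between tumours. Intervals are 95% intervals for counting error only, and p-values are not given.

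A cell that divides first licenses its origins of replication, copies its DNA in S phase under cyclin E and cyclin A, and then enters mitosis under cyclin B and CDK1. The genes of licensing and replication are driven by E2F factors and are transcribed early. The genes of the spindle, kinetochore and mitotic kinases are transcribed later, through the MuvB complex with B-MYB and FOXM1. Many of their products are destroyed by the anaphase-promoting complex at mitotic exit. Of the genes in the rule, Top2a encodes the topoisomerase that untangles sister DNA, Mki67 encodes the proliferation antigen Ki-67 that coats mitotic chromosomes, and Cenpf encodes a late kinetochore protein.

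The members were epithelial by their RNA. UMIs were summed over the cells of a group and scaled to CPM (counts per 1000000 UMIs of the group). Epcam, an epithelial adhesion gene, stood at 426 CPM in knockout and 398 CPM in control members, and at 430.1 CPM (knockout) and 398 CPM (control) in other tumour cells. The keratin gene Krt8 stood at 1558 CPM in knockout and 1569 CPM in control members. The 3 epithelial genes were used to choose the cells, so these levels describe the choice. Markers of other cell types were low but not at 0. The summed T cell markers reached 2.99 CPM in knockout and 1.71 CPM in control members, with 6 of 6 detected, and the summed NK cell markers 0.591 CPM in knockout and 0.285 CPM in control members, with Klrb1c at 0 in both. The summed macrophage markers, led by Lyz2, reached 31.7 CPM in knockout and 20.2 CPM in control members, with 7 of 7 detected. The summed fibroblast markers reached 13.2 CPM in knockout and 76.9 CPM in control members, and 1 control cell held 89.2% of the Col1a1 UMIs of its group. The 5 neutrophil markers summed to 1.72 CPM in knockout and 4.96 CPM in control members with Ly6g at 0 in both, and the 5 dendritic cell markers to 0.957 (knockout) and 0.221 CPM (control) with Clec9a and Cd209a at 0 in both. Endothelial markers summed to 1.35 CPM in knockout members and 1.74 CPM in control members, those of pericytes or smooth muscle to 1.38 (knockout) and 0.506 CPM (control), erythroid ones to 2.06 (knockout) and 1.55 CPM (control), and those of mast cells or basophils to 1.61 (knockout) and 1.99 CPM (control). At least 2 CP10K of the markers of some other cell type was found in 26 of 499 knockout members (5.21%) and 7 of 521 control members (1.34%), most often of macrophages (15 knockout and 3 control cells). The summed luminal gland markers stood at 42.4 CPM in knockout and 3.57 CPM in control members, with 4 of 4 detected in both and Prlr leading. The summed basal gland markers stood at 12.95 CPM in knockout and 4.33 CPM in control members, with Krt5 and Oxtr at 0 in control members and Acta2 leading in both. The luminal markers without Prlr reached 2 CP10K in 5 knockout and 0 control members, and the basal markers without Acta2 in 3 knockout and 0 control members. The part of gland RNA in the differences between the libraries was not tested beyond values without marker-bearing cells, given here and below. With all members the luminal gene Csn3 stood at 15.5 CPM in the knockout and 0.379 CPM in the control. Without the cells that held other cell types' markers it stood at 5.74 CPM in knockout and 0.382 CPM in control members. Scrublet called 1 member a doublet in each library.

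The knockout library held the larger share of dividing cells. They made up 499 of 2256 knockout tumour cells, 22.1% (exact Clopper-Pearson interval 20.4 to 23.9), and 521 of 3641 control tumour cells, 14.3% (13.2 to 15.5). The knockout share was 1.55-fold the control share, a log2 ratio of 0.63. With each cell thinned at random to 5000 UMIs, which left out no cell, the shares were 21.3% (19.6 to 23.1) in the knockout and 13.8% (12.7 to 14.95) in the control, with the same log2 ratio of 0.63. The thinned call found 85.6% of the knockout and 87.3% of the control members again. At the other end, 26.9% of knockout tumour cells (25.1 to 28.8) and 45.2% of control tumour cells (43.5 to 46.8) had no UMI of the 3 cycle genes. The median depths of these cells alone were 28949 UMIs (knockout) and 28842 UMIs (control). This share depends on depth and was not recomputed with thinned cells. The members were the deeper cells, with a median of 64426 UMIs in knockout and 56645 UMIs in control members, against 37308 UMIs in other knockout and 34037 UMIs in other control tumour cells.

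**Figure D1:**
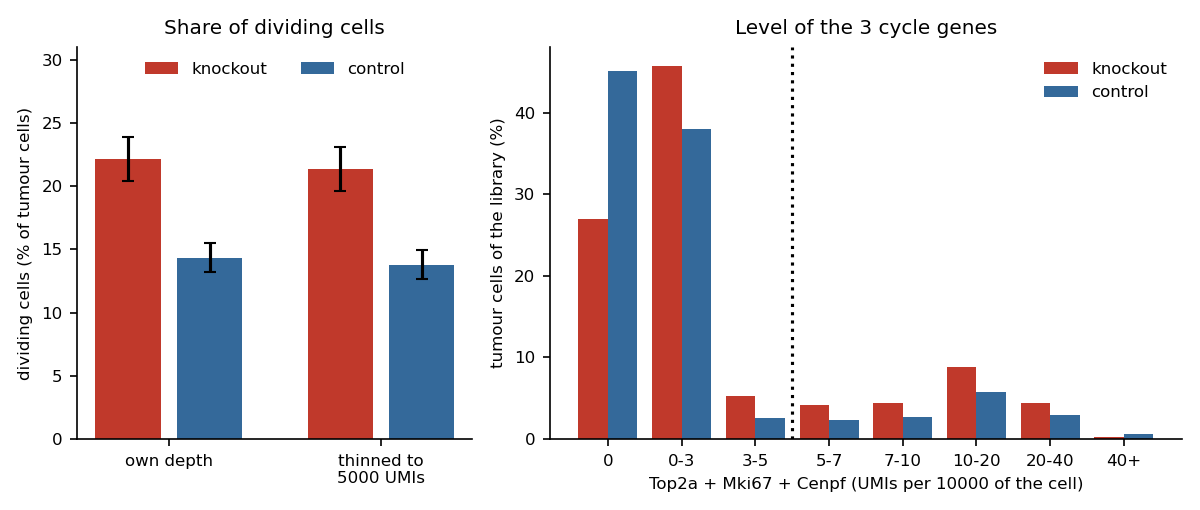
Left: dividing cells as a percentage of the tumour cells of each library, at the cells' own depth and after thinning to 5000 UMIs, knockout in red and control in blue, with exact binomial 95% intervals. Right: percentage of the tumour cells of each library by the summed level of Top2a, Mki67 and Cenpf in UMIs per 10000 of the cell (0-3 leaves out 0), with the threshold of 5 as a dotted line. The knockout bars stand higher in every class from 0-3 to 20-40, and the control bar at 0 and in the class of 40 and over.

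The level that chose the cells had no gap at its threshold. Between 5 and 7 CP10K, just inside, lay 94 knockout and 83 control members, and between 3 and 5 CP10K, just outside, 118 knockout and 93 control cells. Across these 2 strips the summed Top2a level was 298 CPM inside and 190.2 CPM outside in the knockout library, and 256 and 196 CPM in the control library. Top2a is part of the sum that sets the strips, so its levels describe the choice. Ccnb1, the cyclin B1 gene, which the rule did not use, was at 42.3 and 26.1 CPM in the knockout library and at 44.2 and 28.7 CPM in the control library. Mcm6, a subunit gene of the replicative helicase, ran the other way, with 145 CPM inside and 173 CPM outside in the knockout library and 122 and 153 CPM in the control library. The members are therefore a range of cells cut from a continuum, and by Ccnb1 they were richer in late cycle RNA than the cells next to them.

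Within the members the 3 cycle genes summed to a median of 12.1 CP10K in knockout and 13.2 CP10K in control cells. All 3 genes were detected in 477 of 499 knockout and 495 of 521 control members. In 115 knockout and 125 control members no single gene of the 3 reached 5 CP10K, so that these cells passed through the sum. Cenpf supplied 27.4% of the UMIs of the 3 genes in knockout members and 34.7% in control members, and Top2a 53.2% (knockout) and 45.6% (control).

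The members spread between a replicating and a mitotic profile. In knockout members, UMIs of 32 DNA replication genes had a median of 19.9 CP10K (10th to 90th percentile 7.33 to 44.9), and in control members 16.5 CP10K (7.02 to 46.0). UMIs of 27 genes of spindle motors, microtubule factors and cytokinesis had a median of 23.1 CP10K in knockout members (10.0 to 48.0) and 28.9 CP10K in control members (12.9 to 59.1). The replication sum exceeded the spindle sum in 225 of 499 knockout members, 45.1% (40.7 to 49.6), and in 170 of 521 control members, 32.6% (28.6 to 36.8). The balance is a continuous one, and 135 knockout and 107 control members lay within 1.5-fold of equal sums. The spindle sum was more than 2-fold the replication sum in 31.1% of knockout and 45.7% of control members. This division of cells was chosen after the values had been seen.

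**Figure D2:**
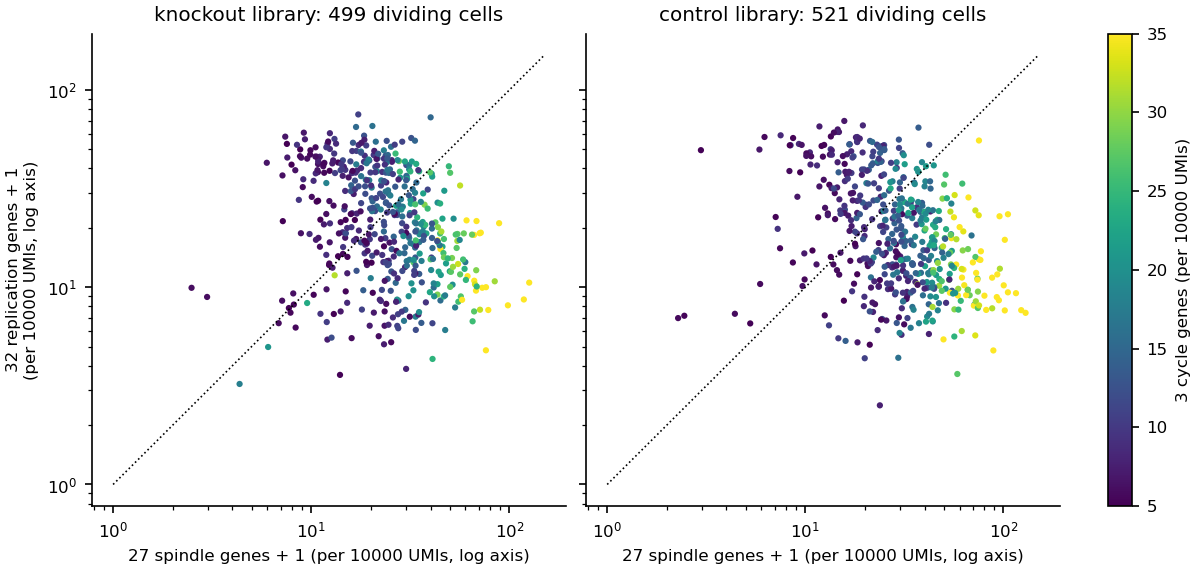
Each point is 1 dividing tumour cell, knockout library left and control library right, with the summed level of 27 spindle genes on the horizontal and of 32 replication genes on the vertical axis, both in UMIs per 10000 plus 1 on log axes. Colour gives the summed level of Top2a, Mki67 and Cenpf, capped at 35, and the dotted line marks equal sums. More knockout points (45.1%) than control points (32.6%) lie above the line, and the cells with the highest cycle gene level lie mostly below it in both libraries.

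Along the cycle gene level the late genes Ccnb1 and Ube2c were higher and the early genes Mcm6 and Ccne2 lower in both libraries. The classes are cut by the same 3 genes that chose the cells, so these trends describe the choice. At 5 to 10, 10 to 20, and 20 or more CP10K of the cycle genes lay 193, 200 and 106 knockout members and 180, 212 and 129 control members. In these classes Ccnb1 stood at 46.1, 76.5 and 155 CPM in knockout members and at 56.7, 122 and 214 CPM in control members. Ube2c, the ubiquitin-conjugating enzyme of the anaphase-promoting complex, stood at 157, 356 and 629 CPM in knockout members and at 290.3, 626 and 1106 CPM in control members. Mcm6 stood at 147, 116 and 74.1 CPM in knockout members and at 121, 81.7 and 36.8 CPM in control members. Ccne2, the cyclin E2 gene, stood at 15.4, 11.8 and 5.88 CPM in knockout members and at 10.0, 5.77 and 2.21 CPM in control members. In all 3 classes Ccnb1 and Ube2c were lower and Mcm6 and Ccne2 higher in the knockout library. Not every early gene followed. From 5 to 10 CP10K, Ccne1, the cyclin E1 gene, stood at 9.68 CPM in knockout and 12.8 CPM in control members. Pcna stood there at 141 CPM (knockout) and 158 CPM (control), and Rrm2 at 112 CPM (knockout) and 116 CPM (control). Cdc6 was higher in the knockout there, at 20.8 CPM against 18.2 CPM in the control. Lcn2, the gene of the iron-binding protein lipocalin 2, ran against the cycle: it stood at 616 CPM in knockout and 1238 CPM in control tumour cells without a cycle gene UMI, and at 29.0 CPM (knockout) and 221 CPM (control) in the highest class.

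**Figure D3:**
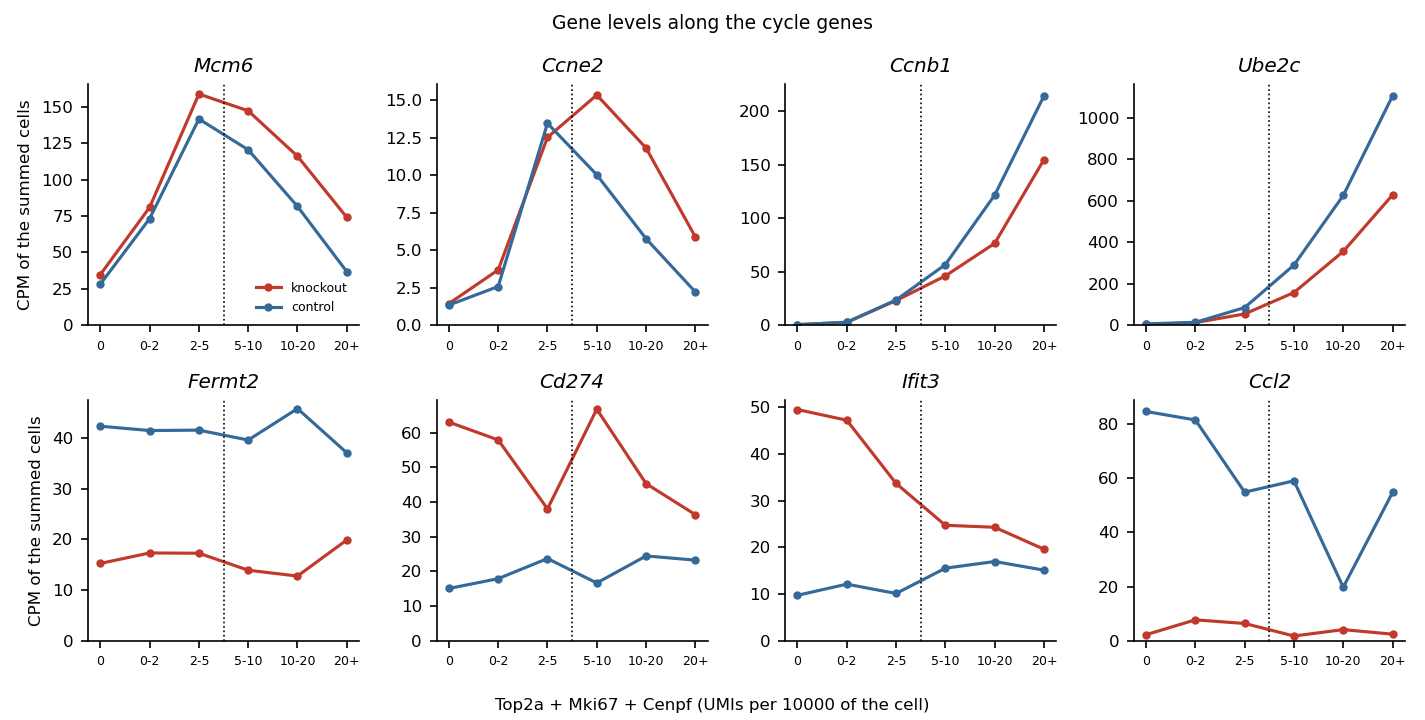
Level of 8 genes in CPM of the summed cells, along classes of tumour cells by the summed level of Top2a, Mki67 and Cenpf in UMIs per 10000, knockout in red and control in blue, with the threshold for dividing cells as a dotted line. Past the threshold the red line lies above the blue one for Mcm6, Ccne2, Cd274 and Ifit3, and below it for Ccnb1, Ube2c, Fermt2 and Ccl2.

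Set against other tumour cells of the same library, the members differed by the genes that the rule selects for, and this contrast is a description only. A gene was counted as higher or lower at 1.5-fold or more, among genes with at least 50 UMIs over both groups. All 27 spindle genes were higher in dividing cells in both libraries, beside 9.03% of 13815 genes in the knockout and 9.67% of 13972 in the control library. Their median log2 ratio was 3.69 in the knockout and 4.51 in the control library. All 25 kinetochore and checkpoint genes were higher too, with medians of 3.31 (knockout) and 4.12 (control). Of 23 G2/M cyclins, kinases and regulators 22 were higher in each library (medians 2.36 in the knockout and 2.85 in the control), all but Wee1, the kinase gene that restrains CDK1, at log2 ratios of 0.07 and 0.43 in the knockout and control libraries. Replication genes were higher in 28 of 32 in the knockout and 27 of 32 in the control library, by smaller medians of 0.92 (knockout) and 1.01 (control). Genes of homologous recombination followed in 17 of 20 (knockout, median 1.71) and 18 of 20 (control, median 1.92).

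Replication-dependent histone genes were prominent among the genes that set dividing cells apart. Of the 20 genes with the largest ratio in both libraries, 8 were Hist genes. Hist1h1b, the linker histone H1.5 gene, stood at 497 CPM in dividing and 9.29 CPM in other knockout cells, and at 344 and 6.62 CPM in dividing and other control cells. Of 60 Hist genes with enough UMIs, 23 were at least 1.5-fold higher in knockout than in control members, beside 8.96% of 12684 genes, and 0 were lower. Their median log2 ratio was 0.48, and their summed level 2920 CPM in knockout and 2425 CPM in control members. These genes are near-identical copies whose reads can be split or lost in counting, most of their RNA has no poly(A) tail, and they were picked out after their values were seen. Others of the 20 were Kif14, Nusap1 and Aspm, genes of spindle and cytokinesis proteins, and Aurkb, the kinase gene of the chromosomal passenger complex.

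The genes lowest in dividing cells, relative to other tumour cells, were scarce. Tcp11l2 stood at 2.42 CPM in dividing and 17.2 CPM in other knockout cells, and at 4.84 and 24.5 CPM in dividing and other control cells. Fetub, a secreted protease inhibitor gene, stood at 0.282 CPM in dividing and 5.94 CPM in other knockout cells, and at 0.664 and 5.59 CPM in dividing and other control cells. Genes of hypoxia and glycolysis were lower in 7 of 22 in the knockout library, beside 11.3% of all genes, and in 5 of 22 in the control library, beside 10.5%. Hk2, the hexokinase 2 gene, was among them and stood at 122 CPM in dividing and 205 CPM in other knockout cells, and at 94.5 and 181 CPM in dividing and other control cells. Spp1, the osteopontin gene, stood at 1364 CPM in dividing and 4418 CPM in other knockout cells, and at 2266 and 4494 CPM in dividing and other control cells.

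Between the libraries the first check was the targeted gene. Fermt2 (chr14:45458795-45530118, minus strand, mm10) stood at 14.7 CPM (exact Poisson interval 13.5 to 16.0) in knockout members and 41.4 CPM (39.2 to 43.7) in control members, a log2 ratio of -1.49 (-1.64 to -1.34). It stood at 16.8 CPM (knockout) and 41.8 CPM (control) in other tumour cells. RNA of the gene remained in the knockout library, and an edit of the coding sequence need not lower it. Over all 12684 genes compared between knockout and control members the median log2 ratio was 0.05, with 1136 genes (8.96%) at least 1.5-fold higher and 733 (5.78%) at least 1.5-fold lower in the knockout.

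Genes of replication entry had list medians slightly above 0 in knockout members. Of 24 genes of G1/S entry and origin licensing, 22 had a ratio above 0 and 3 were at least 1.5-fold higher, beside 8.96% of all genes, and 0 were lower. The list median was 0.28, beside 0.05 over all genes. Ccne2 stood at 11.9 CPM in knockout and 6.29 CPM in control members, a log2 ratio of 0.91 (0.67 to 1.16). Ccnd2, the cyclin D2 gene, stood at 20.3 CPM in the knockout and 12.0 CPM in the control, and Mcm10, which helps to start the replicative helicase, at 21.7 CPM in the knockout and 14.3 CPM in the control. Mcm6 stood at 119 CPM in the knockout and 83.3 CPM in the control (0.51, 0.44 to 0.58). Ccnd1, the cyclin D1 gene, was nearly level at 1112 CPM in the knockout and 1161 CPM in the control. Ccnd3, the cyclin D3 gene, had the lowest ratio of the list, with 31.6 CPM in knockout and 41.6 CPM in control members.

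Of 32 DNA replication genes, 28 had a ratio above 0 and the median was 0.24, beside 0.05 over all genes. At least 1.5-fold higher were 2 genes, a share below the 8.96% of all genes, and 0 were lower. Pola1, the catalytic subunit of the polymerase that lays down primers, stood at 200.1 CPM in knockout and 107 CPM in control members (0.90, 0.84 to 0.96), and Pole, the leading-strand polymerase gene, at 35.8 CPM in the knockout and 23.3 CPM in the control. Pcna, the sliding clamp gene, was nearly level at 124 CPM in the knockout and 123 CPM in the control, as was Rrm2, a ribonucleotide reductase gene, at 101 CPM in the knockout and 97.3 CPM in the control. Dut, which keeps uracil out of DNA, was lower at 246 CPM in knockout and 314 CPM in control members. Pola1 differed as much in other tumour cells, at 123 CPM (knockout) and 64.0 CPM (control). In those cells the replication median was 0.34, with 6 of 32 genes at least 1.5-fold higher, beside 13.6% of all genes. The licensing median there was 0.24, and that of all genes 0.09. Genes of homologous recombination and replication stress had a median of 0.25 in members, with 0 of 20 past 1.5-fold. In other tumour cells their median was 0.43, with 6 of 20 higher, beside the same 13.6% of all genes. Brca1, central to repair of breaks at replication forks, stood at 46.0 CPM in the knockout and 30.7 CPM in the control (0.58).

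Genes of mitosis had list medians slightly below 0 in knockout members, although more of the knockout tumour cells were members. Of 23 G2/M cyclins, kinases and regulators, 5 were at least 1.5-fold lower, beside 5.78% of all genes, and 0 higher, and the list median was -0.25. Cdc25b, the phosphatase gene that switches on CDK1, stood at 23.9 CPM in knockout and 45.1 CPM in control members (-0.92, -1.04 to -0.79). Aurka, the centrosome kinase gene, stood at 53.5 CPM in the knockout and 90.6 CPM in the control (-0.76, -0.84 to -0.67). Ccnb1 stood at 82.0 CPM in the knockout and 124 CPM in the control (-0.59), Ccnb2 at 144 CPM in the knockout and 229.5 CPM in the control, and Nek2, another centrosome kinase gene, at 28.9 CPM in the knockout and 43.7 CPM in the control. Plk1, the polo-like kinase gene, was lower by less than 1.5-fold at 76.3 CPM in the knockout and 102 CPM in the control, as was Cdk1 at 257 CPM in the knockout and 349 CPM in the control. Foxm1 and Mybl2, the transcription factor genes that drive this programme, were nearly level at 34.0 CPM in the knockout and 33.1 CPM in the control and at 22.1 CPM in the knockout and 20.7 CPM in the control.

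The medians of the structural genes of mitosis were below 0 too. Of 27 spindle and cytokinesis genes, 5 were at least 1.5-fold lower, beside 5.78% of all genes, and 0 higher, with a median of -0.34 and 4 ratios above 0. Ckap2l, a spindle protein gene, stood at 80.1 CPM in knockout and 143 CPM in control members (-0.84, -0.91 to -0.77), and Tpx2, which activates Aurora A on the spindle, at 163 CPM in the knockout and 252 CPM in the control. Kif11, the motor that separates the spindle poles, was nearly level at 131 CPM in the knockout and 124 CPM in the control. Of 25 kinetochore and checkpoint genes, 2 were lower, a share near that 5.78%, and 0 higher (median -0.28, 5 ratios above 0): Bub1b, the checkpoint kinase-like gene, at 47.3 CPM in the knockout and 71.6 CPM in the control, and Cenpa, the centromeric histone gene, at 254 CPM in the knockout and 384 CPM in the control. Of 16 genes of the anaphase-promoting complex and mitotic exit, 2 were lower and 0 higher (median -0.19). Ube2c stood at 341 CPM in knockout and 636 CPM in control members (-0.90, -0.93 to -0.87), and Pttg1, the securin gene that guards sister cohesion, at 161 CPM in the knockout and 261 CPM in the control. Cdc20, the activator of that complex, stood at 157 CPM in the knockout and 229 CPM in the control. Among 20 genes of condensin, cohesin and chromatin (median -0.19), H2afx, the histone gene of the damage mark, was lower at 209 CPM in the knockout and 326 CPM in the control, and Ncapg2, a condensin II gene, was higher at 79.2 CPM in the knockout and 52.7 CPM in the control.

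In other tumour cells the mitotic lists lay on the opposite side. There the median was 0.36 for the G2/M list, 0.52 for the kinetochore list and 0.55 for the spindle list, knockout over control, and 13 of 27 spindle genes were at least 1.5-fold higher, beside 13.6% of 14676 genes. Of these other tumour cells, 212 of 1757 in the knockout and 187 of 3120 in the control library lay from 2 to 5 CP10K of the cycle genes, next to the threshold. Within classes of like cycle gene level the spindle median was 0.20 at 0 CP10K, 0.24 from there to 2, -0.16 from 2 to 5, -0.26 from 5 to 10, -0.29 from 10 to 20 and -0.33 at 20 or more. The replication median over the same classes was 0.04, 0.09, -0.03, 0.14, 0.24 and 0.38, and that of all genes stayed between 0.01 and 0.07. Averaged over the 3 classes of members, the spindle median was -0.29 with 2 genes past 1.5-fold, the kinetochore median -0.22 with 0, and the G2/M median -0.24 with 3. In that setting 743 of all 12684 genes were at least 1.5-fold lower. With Ccnb1, Cdk1 and Birc5 in place of the 3 cycle genes, the medians were -0.26, -0.22 and -0.17, with 3, 0 and 3 genes lower. Ccnb1 and Cdk1 belong to the G2/M list and Birc5 to the kinetochore list. The medians of these lists thus include genes that chose the cells. Over all genes 788 were lower in that setting.

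**Figure D4:**
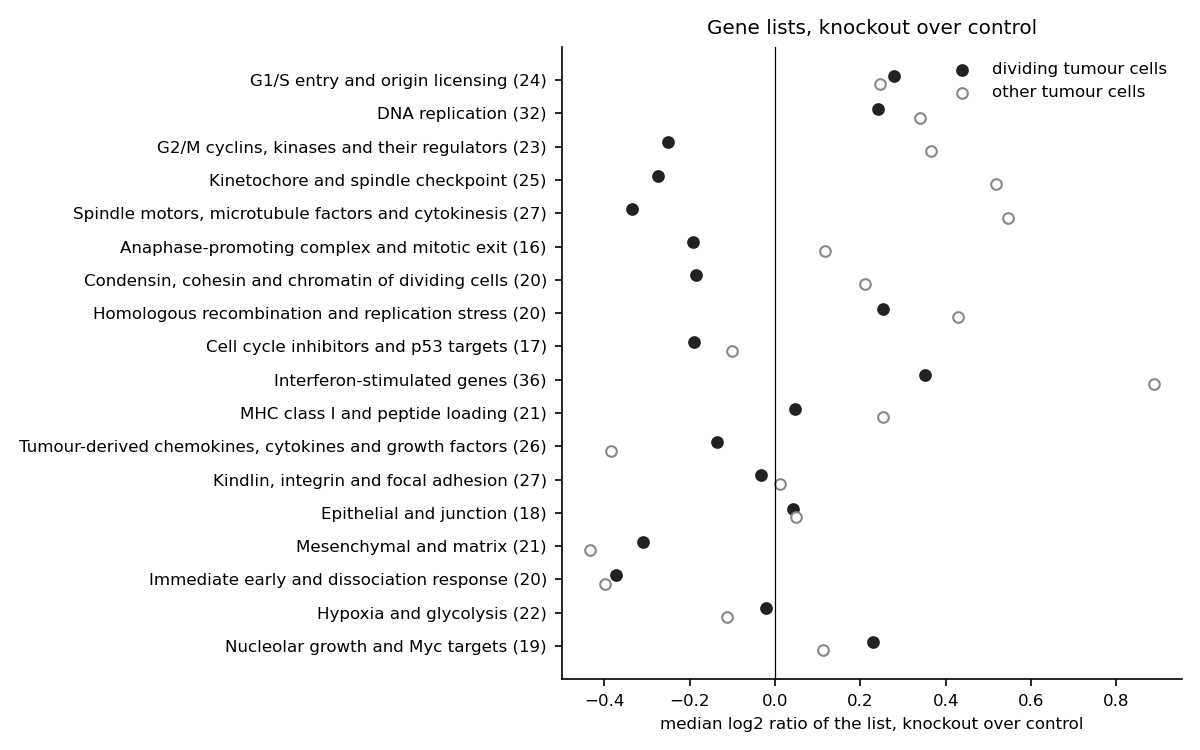
Median log2 ratio, knockout over control, of the members of 18 gene lists, in dividing tumour cells (filled) and in other tumour cells (open), with the number of genes measured in dividing cells in brackets. Dividing cells lie left of 0 and other cells right of 0 for the G2/M, kinetochore, spindle, anaphase-promoting complex and condensin lists, while both lie to the right for the licensing, replication, recombination and interferon lists.

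The early and the late lists differ in part in the letters of their promoters, and 7 stretches are printed as examples, with Rrm2 as an early gene that goes against the split. They run 5′ to 3′ from 250 bases before to 50 after the annotated start, as given by RefSeq for GRCm38.p6, with matches in capitals on either strand. The first motif, known from late genes and named CHR, was searched as TTTGAA. A second spelling of it, which equals its own reverse complement, was TTTAAA. Another motif was the box CCAAT. The motif known from early genes, named E2F, was searched as TTTCCCGC, TTTCGCGC, TTTGCCGC and TTTGGCGC, which can overlap each other on opposite strands. The first 4 are late genes and the last 3 early genes.
Ccnb1 (chr13:100786437-100786736, minus strand): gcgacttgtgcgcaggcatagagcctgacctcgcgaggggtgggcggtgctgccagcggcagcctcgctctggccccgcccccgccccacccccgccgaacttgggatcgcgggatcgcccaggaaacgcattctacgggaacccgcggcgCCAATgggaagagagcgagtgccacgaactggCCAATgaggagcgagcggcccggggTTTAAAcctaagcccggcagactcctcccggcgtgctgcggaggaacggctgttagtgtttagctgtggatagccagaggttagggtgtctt
Plk1 (chr7:122159185-122159484, plus strand): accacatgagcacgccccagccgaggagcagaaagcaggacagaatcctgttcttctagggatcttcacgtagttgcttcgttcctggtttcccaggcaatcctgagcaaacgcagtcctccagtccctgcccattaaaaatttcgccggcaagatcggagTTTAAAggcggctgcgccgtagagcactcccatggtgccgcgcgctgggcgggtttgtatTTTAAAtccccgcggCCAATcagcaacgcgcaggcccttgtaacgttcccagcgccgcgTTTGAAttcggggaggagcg
Cdc20 (chr4:118437294-118437593, minus strand): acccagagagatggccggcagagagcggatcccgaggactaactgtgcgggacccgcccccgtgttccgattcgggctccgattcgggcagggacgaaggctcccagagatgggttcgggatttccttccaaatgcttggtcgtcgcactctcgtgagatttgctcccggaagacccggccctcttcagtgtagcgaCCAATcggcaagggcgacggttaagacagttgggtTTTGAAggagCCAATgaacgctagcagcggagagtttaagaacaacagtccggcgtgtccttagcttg
Ube2c (chr2:164769679-164769978, plus strand): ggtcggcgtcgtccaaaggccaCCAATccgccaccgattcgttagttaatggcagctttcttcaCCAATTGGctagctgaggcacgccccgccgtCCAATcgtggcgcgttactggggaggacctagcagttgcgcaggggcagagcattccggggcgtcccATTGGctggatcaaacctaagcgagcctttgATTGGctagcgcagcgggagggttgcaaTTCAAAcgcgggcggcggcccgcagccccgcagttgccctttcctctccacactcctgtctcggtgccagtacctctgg
Mcm6 (chr1:128359656-128359955, minus strand): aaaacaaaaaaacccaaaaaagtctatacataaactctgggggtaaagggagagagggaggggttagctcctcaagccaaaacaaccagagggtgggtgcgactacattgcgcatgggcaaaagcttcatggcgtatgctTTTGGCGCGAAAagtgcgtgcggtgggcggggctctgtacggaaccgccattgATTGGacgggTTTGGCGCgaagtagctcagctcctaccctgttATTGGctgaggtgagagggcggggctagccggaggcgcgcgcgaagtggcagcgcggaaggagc
Cdc6 (chr11:98907901-98908200, plus strand): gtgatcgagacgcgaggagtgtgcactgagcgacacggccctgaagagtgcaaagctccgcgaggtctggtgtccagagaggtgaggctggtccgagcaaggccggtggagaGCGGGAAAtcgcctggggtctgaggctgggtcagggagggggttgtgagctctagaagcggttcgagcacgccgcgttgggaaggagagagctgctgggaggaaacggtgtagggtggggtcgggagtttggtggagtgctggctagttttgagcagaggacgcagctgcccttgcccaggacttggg
Rrm2 (chr12:24708004-24708303, plus strand): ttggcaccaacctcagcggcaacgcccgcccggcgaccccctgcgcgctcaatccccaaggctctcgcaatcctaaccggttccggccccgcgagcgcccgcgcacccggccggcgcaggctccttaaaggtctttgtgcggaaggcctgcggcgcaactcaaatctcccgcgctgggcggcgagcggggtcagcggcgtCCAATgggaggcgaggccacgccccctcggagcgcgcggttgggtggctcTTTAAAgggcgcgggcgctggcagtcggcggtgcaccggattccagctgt

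CHR letters stood in 22 of the 25 spindle genes with a window (88.0%), in 65.0% of kinetochore genes and in 66.7% of G2/M genes, against 19.8% of 10918 genes measured in tumour cells and 27.8% of all 27025 genes of the table. CHR and CCAAT letters together stood in 68.0% of spindle genes, 45.0% of kinetochore genes and 53.3% of G2/M genes, against 7.84% of measured genes. E2F letters stood in 11 of 19 licensing genes (57.9%) and 26.9% of replication genes, against 2 of 25 spindle genes and 4.06% of measured genes. They also stood in 35.7% of the condensin, cohesin and chromatin genes, of which 64.3% held CHR letters. The E2F share of replication genes was near that of homologous recombination genes (28.6%) and of nucleolar genes and Myc targets (25%). CCAAT alone did not part the lists as CHR did: it stood in 63.2% of licensing and 50% of replication genes, against 68.0% of spindle, 70% of kinetochore and 73.3% of G2/M genes and 38.5% of measured genes. In the stretch of Ccnb1 the CHR letters follow a pair of CCAAT boxes, and in that of Mcm6 the E2F letters occur on both strands. The stretch of Rrm2 holds TTTAAA and a CCAAT box and no E2F letters. The early genes Pcna and Mcm10 held no E2F letters either, and the late gene Cdk1 held them beside CHR letters. A match of letters is a description, and which factors bound these promoters in the tumours was not measured. Ccne2 had no entry in the table.

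Among 17 measured cell cycle inhibitors and p53 targets, 2 were at least 1.5-fold lower in knockout members, beside 5.78% of all genes, and 0 higher (median -0.19). Cdkn1a, which encodes the CDK inhibitor p21, stood at 25.96 CPM in knockout and 40.2 CPM in control members (-0.63), and at 11.3 CPM (knockout) and 25.4 CPM (control) in other tumour cells. Gadd45a, a damage-induced gene, stood at 40.9 CPM in knockout and 85.5 CPM in control members (-1.06). Nucleolar genes and Myc targets had a median of 0.23, with 1 of 19 at least 1.5-fold higher, the scarce gene Ldhb, beside 8.96% of all genes. Myc itself stood at 70.6 CPM in knockout and 60.2 CPM in control members.

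Interferon-stimulated genes had ratios above 0 in 31 of 36 in knockout members, with a smaller median than in other tumour cells. Of the 36 measured genes, 6 were at least 1.5-fold higher and 0 lower in members (median 0.35), beside 8.96% of all genes, while in other tumour cells 26 were higher and 0 lower (median 0.89), beside 13.6%. Cd274, the gene of the checkpoint ligand PD-L1, stood at 51.3 CPM in knockout and 21.5 CPM in control members (1.25, 1.13 to 1.38), and at 56.0 CPM (knockout) and 17.2 CPM (control) in other tumour cells. Ifit3, an antiviral gene, stood at 23.5 CPM in knockout and 16.0 CPM in control members (0.55) and at 45.6 CPM (knockout) and 10.9 CPM (control) in other cells (2.06). Iigp1, an interferon-induced GTPase gene, stood at 283 CPM in knockout and 166 CPM in control members, and Gbp2, another of these GTPase genes, at 224 CPM in the knockout and 142 CPM in the control. Isg15 was closer, at 217 CPM in knockout and 192 CPM in control members and 247 CPM (knockout) and 126 CPM (control) in other cells. Along the classes of cycle gene level, low to high, the list median was 1.01, 0.83, 0.58, 0.47, 0.31 and 0.28. The difference between dividing and other cells was not tested.

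Genes of MHC class I and peptide loading had a median of 0.05 in members, with 0 of 21 past 1.5-fold. Of all genes, 8.96% were higher and 5.78% lower there. In other tumour cells the list median was 0.25, with 3 of 21 genes higher, beside 13.6% of all genes, and 0 lower. B2m, the light chain gene, stood at 1416 CPM in knockout and 1885 CPM in control members, and H2-K1, a heavy chain gene, at 1350.5 CPM in the knockout and 1719 CPM in the control. Psmb10, an immunoproteasome gene, stood at 453 CPM in the knockout and 349 CPM in the control.

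Several secreted factors were lower in knockout members. Of 26 measured genes of chemokines, cytokines and growth factors, 9 were at least 1.5-fold lower, beside 5.78% of all genes, and 3 higher, beside 8.96% (median -0.14, 8 of 26 ratios above 0). Ccl2, which draws monocytes, stood at 2.93 CPM in knockout and 42.0 CPM in control members (-3.84, -4.14 to -3.55), and at 6.15 CPM (knockout) and 80.6 CPM (control) in other tumour cells. Without the cells that held other cell types' markers, it stood at 0.854 CPM in the knockout and 40.4 CPM in the control members. Vegfa, the angiogenic factor gene, stood at 11.0 CPM in the knockout and 34.8 CPM in the control, Csf3, the granulocyte colony-stimulating factor gene, at 43.4 CPM in the knockout and 109 CPM in the control, and the neutrophil chemokine gene Cxcl1 at 138 CPM in the knockout and 298 CPM in the control. The 3 genes higher in knockout members were Il33, an alarmin gene, at 12.9 CPM in the knockout and 4.74 CPM in the control, Ccl5, a T cell chemokine gene, at 45.7 CPM in the knockout and 23.8 CPM in the control, and Csf2, the granulocyte-macrophage factor gene, at 6.79 CPM in the knockout and 3.79 CPM in the control. In other tumour cells Csf2 stood on the opposite side, at 5.87 CPM in the knockout and 9.01 CPM in the control, and 12 of 27 genes of the list were lower there and 1 higher, beside 6.28% and 13.6% of all genes.

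**Figure D5:**
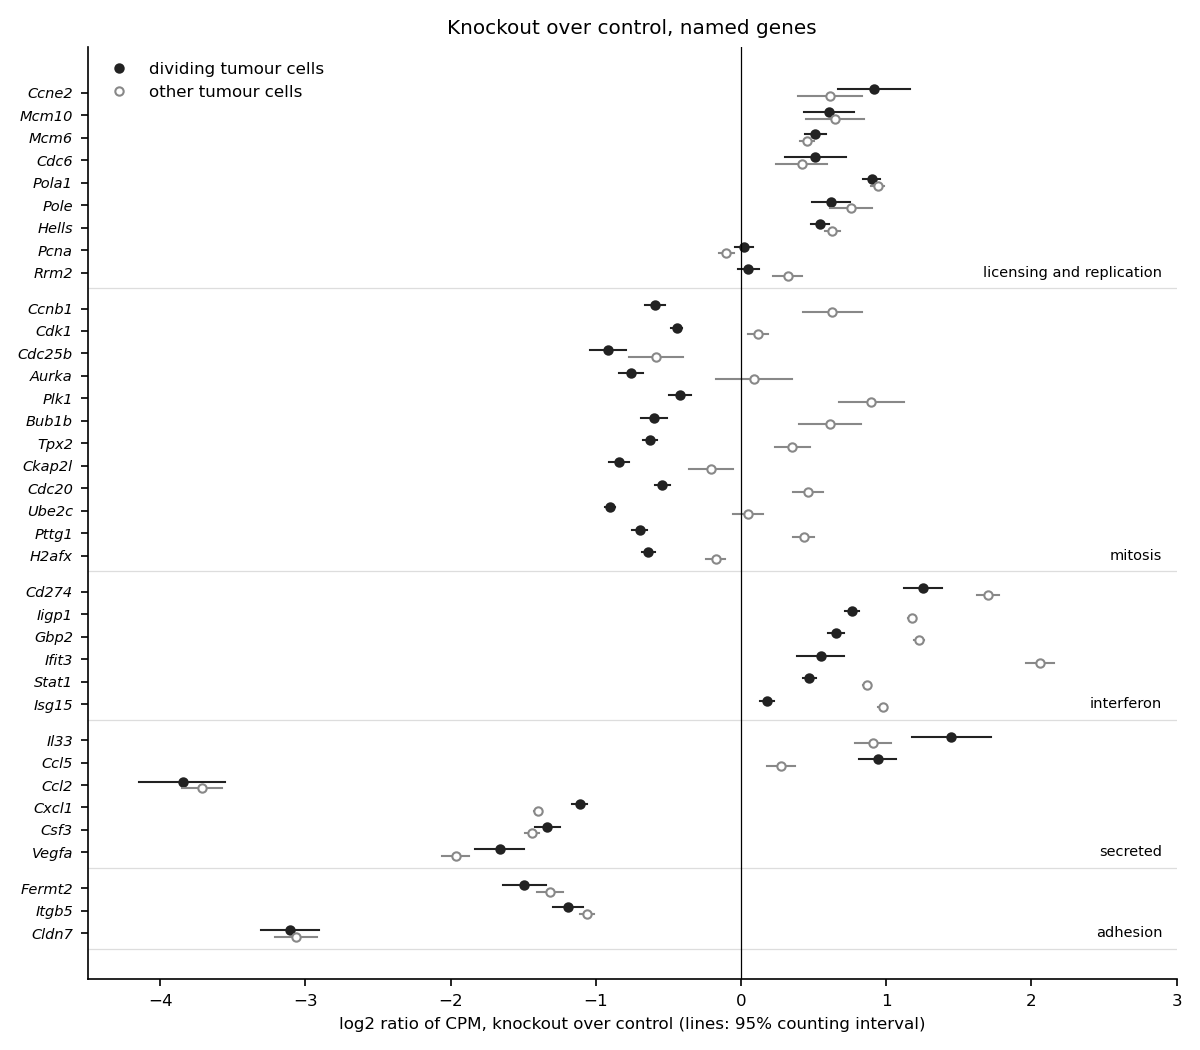
Log2 ratio of CPM, knockout over control, of 36 genes in dividing tumour cells (filled) and in other tumour cells (open), grouped by role, with 95% counting intervals as lines. The filled points of the mitotic genes shown all lie left of 0, while in other tumour cells most of them lie right of it. These genes include the lowest ratio of each mitotic list, and the full lists also held genes above 0 in dividing cells. The licensing and replication genes shown include the highest ratio of each of their lists, and leave out the lowest, those of Ccnd3 and Dut. The 2 points of Fermt2, Pola1, Ccl2 and Cldn7 lie close together.

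Adhesion genes other than the target differed little as a list. Of 27 measured genes of kindlin, integrin and focal adhesion, 3 were at least 1.5-fold lower and 0 higher (median -0.03), beside 5.78% of all genes lower and 8.96% higher. The counts of the epithelial, matrix, immediate early and hypoxia lists stand beside the same shares, and that of the hypoxia list is near them. Apart from Fermt2 these were Itgb5, an integrin beta subunit gene, at 33.7 CPM in knockout and 77.0 CPM in control members, and Itgb3 at 1.07 CPM in the knockout and 3.51 CPM in the control. Fermt1, the related epithelial kindlin gene, stood at 157 CPM in the knockout and 173 CPM in the control. Among 18 epithelial and junction genes (median 0.04), 4 were higher and 2 lower. The highest ratios were those of the keratin gene Krt14 and of Pkp1. The lower ones were the claudin genes Cldn7, at 6.76 CPM in the knockout and 58.1 CPM in the control, and Cldn3, at 81.4 CPM in the knockout and 196 CPM in the control. Of 21 mesenchymal and matrix genes, 9 were lower and 0 higher (median -0.31), with the gelatinase gene Mmp9 at 70.7 CPM in the knockout and 177 CPM in the control and the matricellular gene Ccn2 at 8.08 CPM in the knockout and 25.1 CPM in the control. Of 20 immediate early and dissociation genes, 6 were lower and 2 higher (median -0.37). Btg2, an antiproliferative early gene, stood at 45.9 CPM in the knockout and 119.7 CPM in the control. Of 22 genes of hypoxia and glycolysis, 2 were lower and 0 higher (median -0.02).

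The genes with the largest ratios between libraries were of 2 kinds. Some were spread over many cells. Rab6b, a Golgi trafficking gene, stood at 0.591 CPM in knockout and 23.9 CPM in control members, and at 0.521 CPM (knockout) and 26.6 CPM (control) in other tumour cells. Pitx1, a homeobox gene, had 0 UMIs in knockout members, against 5.88 CPM in control members, so it was at least 69.6-fold lower against a floor of 3 counts over the group. Ibsp, the bone sialoprotein gene, stood at 9.32 CPM in the knockout and 165 CPM in the control, and Sfrp1, a Wnt antagonist gene, at 2.34 CPM in the knockout and 35.9 CPM in the control. Epdr1 stood at 4.14 CPM in knockout members and 0 in control members, at least 43.6-fold higher against the same floor.

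Others rested on 1 or a few cells. In the control library 1 member held 89.2% of the Col1a1 UMIs, and the gene stood at 0.957 CPM in knockout and 27.6 CPM in control members. There 1 member held 85.4% of those of Col1a2, like Col1a1 a fibrillar collagen gene. In the knockout library 1 member held 96.2% of the UMIs of Mcpt2, a mast cell protease gene that stood at 9.69 CPM in knockout and 0.126 CPM in control members. The basal keratin gene Krt5, at 4.76 CPM in knockout and 0 CPM in control members, had its UMIs in 6 knockout members, and Igfbp5, at 9.07 CPM in the knockout and 0 CPM in the control, in 7. Without the cells that held at least 2 CP10K of other cell types' markers, a filter added after the data had been seen, Col1a1 stood at 1.00 CPM in the knockout and 0.829 CPM in the control, Mcpt2 at 0.353 CPM in the knockout and 0.127 CPM in the control, Krt5 at 0.0589 CPM in the knockout and 0 CPM in the control, and Fermt2 at 13.5 CPM in the knockout and 40.6 CPM in the control.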

How the data were processed

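UMI counts per gene and barcode of both libraries were deposited as 1 joined matrix of single cell 3' v2 libraries. The submitters' processing notes name Cell Ranger 2.1.1 and mm10, and the deposited count matrix names Cell Ranger 6.0.1, per the file headers. How barcodes were called and whether libraries were subsampled when joined are not given in the sources used here. Columns of no sample were 0.

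Cells were chosen by the rule in the opening, and the UMIs of each group were summed and scaled to CPM. A log2 ratio is of CPM, with an exact conditional binomial interval. A group at 0 was set to 3 counts. Intervals have a level of 95% and cover counting error only. A gene entered a comparison with at least 50 UMIs over both groups and was counted at 1.5-fold or more. The script was tested on simulated data. Doublets were called with Scrublet (scanpy 1.11.5) in barcodes with at least 500 UMIs and 200 genes, and calls were kept in. Gene positions are those of GENCODE M21.

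The members, gene lists and markers were chosen with earlier results of these data known. Mx1 and Mx2 of the interferon list were not analysed here. The result of 1 marker list is not reported here. Genes were named by rank: the 20 highest and 10 lowest in dividing cells in both libraries, the 10 genes on either side between libraries, the 5 on either side whose ratio differed most between dividing and other cells, and the 2 highest and 2 lowest of each list, plus 21 fixed genes. Other named genes, such as Foxm1, Isg15 and Fermt1, were chosen after their values were seen. Ribosomal protein, mitochondrial, haemoglobin and antigen receptor genes, Xist and Y-linked genes were kept out of the ranking. Alternatives changed 1 choice at a time: depth, mitochondrial, epithelial and cycle thresholds, cycle genes, doublets, UMI minimum, fold, and classes of cycle gene level.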

Additional observations from a re-analysis of the deposited data

Results flagged for a closer look

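For 6 of 18 lists the knockout-over-control median had opposite signs in dividing and in other tumour cells, and for 3 of them the medians lay at least 0.5 apart. The difference was not tested. For the genes of spindle motors, microtubule factors and cytokinesis it was -0.34 in dividing and 0.55 in other tumour cells. For kinetochore and spindle checkpoint genes it was -0.28 and 0.52, and for G2/M cyclins, kinases and their regulators -0.25 and 0.36. The other 3 were the anaphase-promoting complex list, at -0.19 in dividing and 0.12 in other cells, the condensin list, at -0.19 and 0.21, and the kindlin and integrin list, at -0.03 and 0.01. In cells from 2 to 5 CP10K of the cycle genes, which are counted among other tumour cells, the spindle and kinetochore medians were already below 0, at -0.16 and -0.17. Of other tumour cells, 212 of 1757 in the knockout library and 187 of 3120 in the control library lay in that class.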

How the results depend on the processing

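No paired analysis was possible because each group has 1 library. The log2 ratio of the share of dividing cells ranged over the alternatives from 0.41 (16.1% and 12.1% of knockout and control tumour cells, with Ccnb1, Cdk1 and Birc5 as cycle genes) to 0.70 (27.3% and 16.9%, at a cycle threshold of 3 CP10K). Of 558 list medians recomputed, 30 moved, all of them between dividing and other cells, and 13, spread over 8 medians, changed sign, all with a size of at most 0.116, among them the MHC class I, kindlin, epithelial and hypoxia lists between libraries in members. Of 495 ratios of named genes, 99 moved and 15 changed sign, 7 of these below 1.5-fold and with a size of at most 0.096. The other 8 were at least 1.5-fold: Fgb was at -1.67 at a cycle threshold of 10 CP10K, Timp3 at 2.29 at an epithelial threshold of 10 CP10K and at 0.17 averaged over 3 classes of cycle gene level. With cells holding other cell types' markers left out, an alternative added after seeing the data, Timp3 was at 2.11, Igfbp5 at -0.11, Krt5 at -0.70, Col1a1 at 0.27 and Col1a2 at 0.22. There Timp3, Igfbp5 and Krt5 had 14, 3 and 2 UMIs in knockout members and 0 in control members. The control 0 was set to 3 counts, and the negative signs of Igfbp5 and Krt5 came from that floor. Counts of genes moved with their own limits. At 20 UMIs, 1832 genes were higher in knockout members, and at 200 UMIs 537 were higher and 449 lower. At 200 UMIs, 926 genes in the knockout and 828 in the control library were lower in dividing than in other cells. At 2-fold, 473 genes were higher and 307 lower in knockout members. At 2-fold, 628 were higher and 587 lower in dividing than in other knockout cells, and 707 and 623 in control cells. With Ccnb1, Cdk1 and Birc5, 2447 genes were lower in dividing knockout cells than in other ones, and the cause was not tested. Without replicates, counting error is the only error known, and differences between tumours and between libraries cannot be told apart from the genotype.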
